A study of Mus musculus with 6 samples.

Results

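Meg3, Rian and Mirg are long noncoding RNAs read in the same direction, one after another, from an imprinted domain of mouse chromosome 12. They are taken here as the plus-strand RNA contact sites of JARID2 that start between 110770000 and 110995000 on chromosome 12 in the mm9 build, a stretch of 225 kb. That rule gave 130 of the 28728 listed sites, 123 of 23380 in untreated cells and 7 of 5348 after retinoic acid. The gene windows are approximate: Meg3 from 110779000 to 110810000, Rian from 110842000 to 110900000 and Mirg from 110973000 to 110988000. The rule uses position alone and no measured value, but the genes and windows were chosen with earlier results of these data known.

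The study immunoprecipitated JARID2 from E14 cells, a single line of mouse embryonic stem cells grown with serum and LIF, either untreated (3 libraries) or given 2 µM retinoic acid, a differentiation signal, for 24 h (3 libraries). Both groups took up 4-thiouridine at 500 µM for 2 h and were irradiated at 312 nm with 400 mJ per cm2, the PAR-CLIP procedure, which crosslinks a protein to the RNA that touches it. The authors deposited 1 list of contact sites per condition, pooled over its 3 libraries, so there is no spread between replicates and each comparison is between 2 lists. Embryonic stem cell markers, and Dlk1 and Dio3 of the same domain, were not analysed here, since no gene annotation of the mm9 build was used.

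JARID2 is an accessory subunit of the Polycomb complex PRC2, which places the repressive mark H3K27me3 on chromatin, and it binds RNA. In the imprinted domain the noncoding RNAs are expressed from the maternally inherited chromosome and protein-coding genes such as Dlk1 and Rtl1 from the paternal one. Meg3 is a spliced, largely nuclear RNA. Rian is the host of a cluster of C/D box small nucleolar RNAs, and Mirg is a host of microRNAs.

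The small RNAs of each stretch show what lies along the domain. In RefSeq (GRCm38.p6, not the build of the sites), 57 microRNA genes lie on the plus strand from Meg3 to Mirg: 2 within Meg3, 13 between Meg3 and Rian, 3 within Rian, 29 between Rian and Mirg and 10 within Mirg. Counted on either strand, 11 small nucleolar RNA genes lie within Rian and 8 more between Rian and Mirg. All 3 long RNAs were matched by symbol. Mature sequences of some of these microRNAs follow, with the seed (bases 2 to 8) in capitals. They stand for the products of each stretch, and the contact sites were not matched to them.
miR-770-5p, within Meg3: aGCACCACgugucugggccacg
miR-127-3p, between Meg3 and Rian: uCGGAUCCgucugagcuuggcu
miR-136-5p, between Meg3 and Rian: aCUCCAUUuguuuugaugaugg
miR-370-3p, within Rian: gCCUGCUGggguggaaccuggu
miR-379-5p, between Rian and Mirg: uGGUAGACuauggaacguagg
miR-1193-5p, between Rian and Mirg: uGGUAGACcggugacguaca
miR-494-5p, between Rian and Mirg: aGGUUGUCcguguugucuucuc
miR-410-5p, within Mirg: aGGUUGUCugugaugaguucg
miR-154-5p, within Mirg: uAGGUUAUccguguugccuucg
Of 97 seeds among the 105 distinct mature sequences of the plus strand, 8 are each shared by 2 sequences. Both miR-379-5p with miR-1193-5p and miR-494-5p with miR-410-5p are such pairs.

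Across the whole lists, the authors' score per site ran from 1 to 480704 untreated and from 1 to 448416 treated, with medians of 17 and 23. The sources used here do not say what this score counts. Read depth is therefore unknown, and scores serve only to describe and rank sites within a list. The untreated list was 4.37 times as long as the treated one. Intervals below are exact Clopper-Pearson 95% intervals of a share of the list and cover counting error only. They treat sites as independent, which sites on the same transcript are not, so they are too narrow. No such interval was computed for stretches outside the locus.

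In untreated cells, JARID2 contacts ran along nearly the whole strand from Meg3 to Mirg, and after retinoic acid few were listed. The locus held 0.526% of the untreated list (interval 0.437 to 0.627) and 0.131% of the treated list (0.0526 to 0.269), and these intervals do not overlap. How many stretches of this length elsewhere have intervals that are apart was not computed. The ratio of untreated to treated sites was 17.6 in the locus, against 4.37 over the lists. RNA levels were not measured beside the contacts, and read depth is unknown. Fewer contacts per RNA, less RNA per cell, fewer cells with the RNA and a difference in read depth between lists cannot be told apart. Rian held the most sites of the 3 genes, 43 untreated and 3 treated, and Meg3 held 28 and 3. Mirg held 3 untreated sites and is listed with 0 treated sites. Its untreated share was 0.0128% of the list (0.00265 to 0.0375), below the upper bound of 0.0690% for 0 treated sites. So few sites do not show a loss in Mirg. Sites also lay between the genes: 18 untreated and 1 treated between Meg3 and Rian, and 31 untreated and 0 treated between Rian and Mirg.

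**Figure D1:**
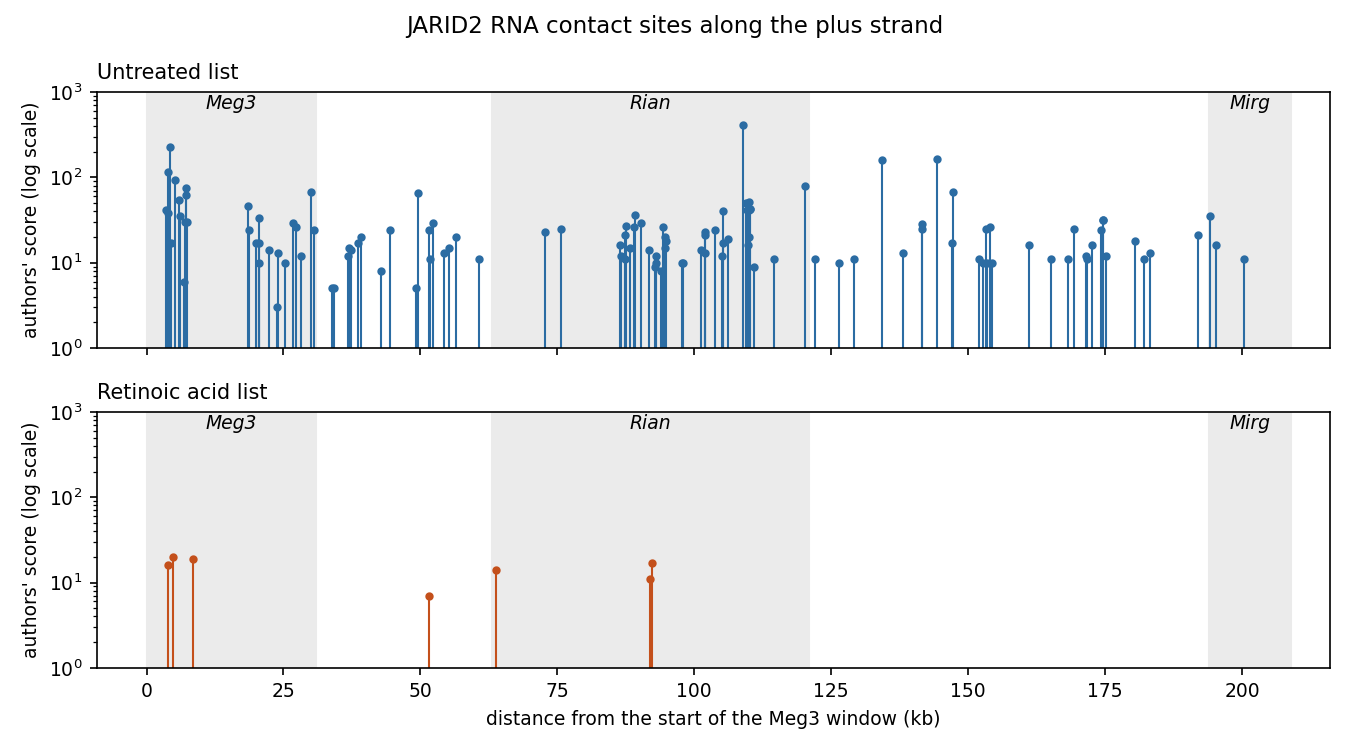
Each stem is 1 contact site, placed by its distance in kb from the start of the Meg3 window, with its height the authors' score on a log axis; the upper panel is the untreated list (123 sites), the lower the treated list (7 sites), and grey bands are the gene windows. Untreated sites run from Meg3 to Mirg, with scores up to 415, while the treated sites stay at scores of 7 to 20 and end within Rian.

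Per length, Meg3 was the densest in the untreated list. It held 9.03 untreated sites per 10 kb, Rian 7.41, the stretch between them 5.63, that between Rian and Mirg 4.25, and Mirg 2.00. In the treated list the densities were 0.968 per 10 kb in Meg3, 0.517 in Rian and 0.313 between them. These densities are not scaled to list length, so they compare stretches within a list and not the lists. For the single genes the shares were less well separated. Meg3 took 0.120% of the untreated list (0.0796 to 0.173) and 0.0561% of the treated list (0.0116 to 0.164), with overlapping intervals. Rian took 0.184% (0.133 to 0.248) and 0.0561% (0.0116 to 0.164), which also overlap. Between Rian and Mirg the untreated share was 0.133% (0.0901 to 0.188) and the upper bound for 0 treated sites was 0.0690%.

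**Figure D2:**
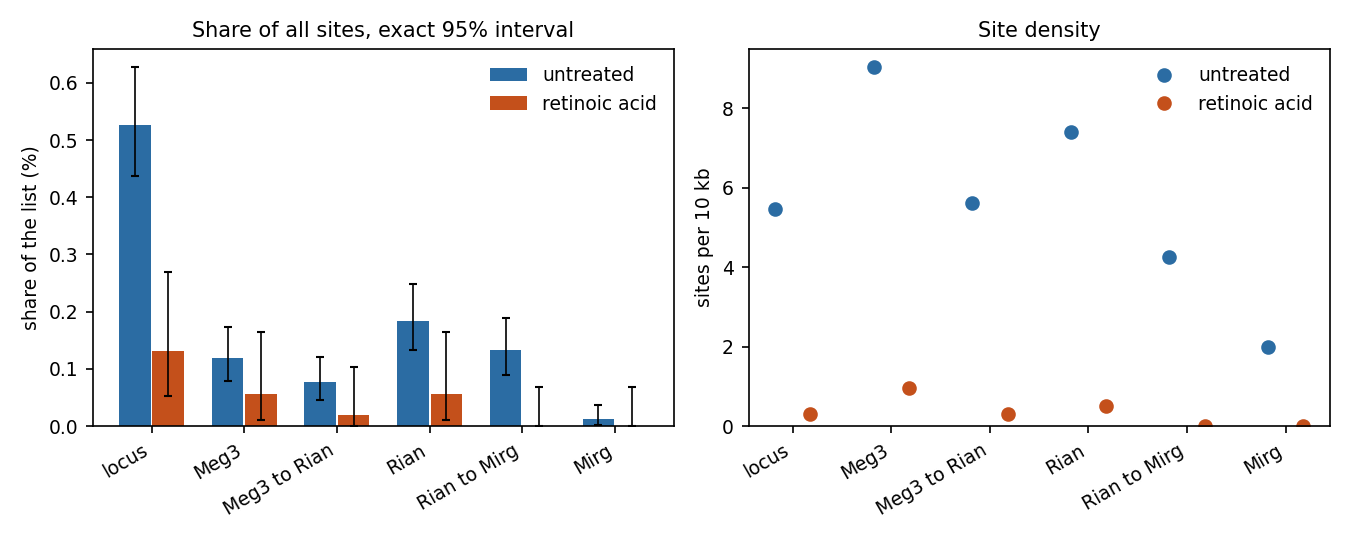
Left, share of each list (%) that lay in the locus or one of its stretches, as bars with exact 95% intervals; right, sites per 10 kb of the same stretches. Untreated bars are above the treated ones in all 6 places. The intervals are apart for the locus and for the stretch between Rian and Mirg, and none was computed outside the locus. Untreated points are also higher, but they are not scaled to list length. The untreated list is 4.37 times as long.

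The contacts were on 1 strand, from inside the Meg3 window to inside the Mirg window. The minus strand, which carries Rtl1, a protein-coding gene derived from a retrotransposon, held 0 sites in the 225 kb in either list. The 225 kb on each side held 0 sites on both strands in both lists. On the plus strand, the untreated list was free of sites for 726 kb before the first site in Meg3 and for 732 kb after the last in Mirg. The corresponding stretches of the treated list were 606 kb and 1412 kb.

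Untreated Meg3 contacts fell into an early and a late part with an empty stretch between. The early part, from 110782520 to 110786350, held 13 untreated sites in 3.83 kb, the largest run of sites no more than 1 kb apart in the locus. It carried 21.6% of the untreated score of the locus. The 3 highest-scored Meg3 sites were all in it: 224 at 110783215 to 110783235, 115 at 110782987 to 110782994 and 93 at 110784267 to 110784284. Then 11.2 kb held no untreated site, from 110786351 to 110797564, the longest such stretch in Meg3. The other 15 untreated sites lay beyond it, with none scored at 100 or more.

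All 3 treated Meg3 sites were in or next to the early part. The first, at 110783009 to 110783020, scored 16 and began 14 bases after the untreated site scored 115 and 194 bases before the one scored 224. The second, at 110783815 to 110783822, scored 20, the highest treated score in the locus, and lay 318 bases from the nearest untreated site. The third, at 110787450 to 110787472, scored 19 and lay 1099 bases past the last untreated site of the early part. None of the 3 shared a base with an untreated site, and 0 treated sites were listed in the late part of Meg3.

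Between Meg3 and Rian, the stretch that carries miR-127 and miR-136, untreated scores ran from 5 to 66 with a median of 14.5. Its 1 treated site, at 110830514 to 110830531 with a score of 7, shared 8 bases with an untreated site at 110830512 to 110830521 with a score of 24. It was the only site of the locus on which the lists overlapped. So 1 of 7 treated sites was shared (14.3%, 0.361 to 57.9) and 1 of 123 untreated sites (0.813%, 0.0206 to 4.45). Over the whole lists 27.3% of treated and 6.28% of untreated sites were shared. With 7 treated sites in the locus, these shares describe few overlaps either way.

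In Rian, untreated sites were sparse at the start and dense in the later part. The longest stretch with no untreated site in the locus, 12.1 kb from 110839711 to 110851823, covers the start of the Rian window. Only 2 untreated sites came before the next empty stretch of 10.7 kb, which ended at 110865387. Beyond that, 41 untreated sites followed, and steps of 5 kb counted from the start of the Meg3 window held up to 10 of them. A run of 10 sites in 2.00 kb, from 110887865 to 110889867, carried 19.2% of the untreated score of the locus. It began with the highest-scored site of the locus, 415 at 110887865 to 110887875. The next in Rian were 80 at 110899119 to 110899139 and 51 at 110888930 to 110888942.

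The 3 treated Rian sites lay away from that run. The first, at 110842887 to 110842901 with a score of 14, was inside the 12.1 kb that held no untreated site and 3176 bases from the nearest one. The other two, at 110870850 to 110870866 and 110871340 to 110871359, scored 11 and 17 and lay 161 and 506 bases from the nearest untreated site. After 110871359 no treated site was listed, and 16505 bases separated it from the site scored 415.

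Past Rian, in the stretch that carries miR-379 and 29 of the 57 microRNA genes of the plus strand, 31 untreated sites were spread at a median gap of 1.60 kb, against 0.355 kb in Rian and 0.466 kb in Meg3. Their median score was 16, with 2 sites above 100, at 160 and 166, noticed after their values were seen. The 3 Mirg sites were at 110973097 to 110973122 (score 35), 110974171 to 110974196 (score 16) and 110979262 to 110979270 (score 11). The first of them lay 101737 bases past the last treated site of the locus.

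The median score of untreated contacts in the locus was near that of their list, while treated contacts scored below the median of theirs. Untreated sites of the locus had a median score of 18 (quartiles 12 and 29.5), against 17 (12 and 30) over the untreated list. By gene the median was 29.5 in Meg3, 20 in Rian and 16 in Mirg. Sites scored 100 or more made up 4.07% of the locus (5 of 123) and 8.09% of the untreated list. Treated sites of the locus scored 7 to 20, with a median of 16, all below the treated list's median of 23. None of the 7 reached 100, while 20.3% of the treated list did, a contrast that rests on few sites. Summed scores of the locus were 3804 over 1737 covered bases untreated and 104 over 113 covered bases treated. These were 0.0578% and 0.00221% of each list's sum. The lists' sums include single scores of up to 480704 untreated and 448416 treated, so the shares are not set against each other.

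To set the locus beside the rest of the lists, neighbouring sites of either list on a strand were joined where at most 10 kb lay between them, and each of 489 regions with at least 10 sites was tested for a different share of the treated list by a two-sided Fisher exact test with Benjamini-Hochberg adjustment. The locus made 3 such regions. The region from the later part of Rian through Mirg, from 110865388 to 110979270, held 75 untreated and 2 treated sites, where the list lengths would give 17.2 treated sites. It had a smaller share of the treated list, with a log2 odds ratio of -3.10 (exact 95% interval -6.18 to -1.20, Fisher exact adjusted p = 0.00173). Both its ends were untreated sites, and it passed the minimum of 10 sites through the untreated list. Sites are not replicates, so the test compares the lists and not the conditions. Of the 489 regions, 7 (1.43%) had a smaller share and 11 a larger share, and the median log2 odds ratio of all was -0.331. So 1 of the 3 regions of the locus stood against that background. By p it was number 6 of the 7 with a smaller share. Among the others were a region of the minus strand of chromosome 10 with 70 untreated sites and 1 treated site and one of the minus strand of chromosome 9 with 53 and 0.

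The other two regions did not pass. The region from the late part of Meg3 to the start of Rian, 110797565 to 110854649, held 35 untreated and 2 treated sites. Its log2 odds ratio was -2.00 (-5.10 to -0.041, Fisher exact adjusted p = 0.345). The region at the early part of Meg3, 110782520 to 110787472, runs on to the third treated site of Meg3. It held 13 and 3, where the list lengths would give 2.97 treated sites, with a log2 odds ratio of 0.013 (-2.44 to 1.88, Fisher exact adjusted p = 1). With gaps of up to 1 kb it ended before that treated site and gave -0.57 from 13 and 2 sites. Whether the region at the early part of Meg3 differs from the Rian and Mirg region was not tested. Sites on 1 transcript are not independent, so these p-values are too small. With the untreated list cut to its 5348 highest-scored sites, the region at the early part of Meg3 held 9 and 3. Its log2 odds ratio was then -1.59 (Fisher exact adjusted p = 0.367). With gaps of up to 1 kb the Rian and Mirg region broke into 32 pieces, of which the 2 large enough to test, with 9 and 2 sites and with 10 and 0, were not called (Fisher exact adjusted p = 1 and 0.646), and the pieces other than that with 9 and 2 held 66 untreated and 0 treated sites.

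Untreated and treated lists differed less in the numbering of the site names than in the sites, over the whole lists as well as in part of the locus. Each name holds a group number that rose along all 54 chromosome strands of the untreated list and all 46 of the treated list, up to 247324 and 221592, a ratio of 1.12. Many numbers are skipped. If each skipped number is a group with no listed site, 8.68% of untreated and 2.12% of treated groups had a site. The sources used here do not say what a group is or why numbers are skipped.

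Read this way, the locus held between 620 and 688 untreated groups, of which 116 had a site, or 16.9% to 18.7%. That is above the 8.68% of the list. The bounds come from the sites inside the locus and from the nearest sites outside it. Over the 88.4 kb from the first to the last treated site, the untreated names span at least 314 numbers and the treated names 174, a ratio of 1.80, while the sites there number 55 and 7, a ratio of 7.86. Over the whole lists these ratios were 1.12 for numbers and 4.37 for sites. The span leaves out the stretch of the locus past the last treated site. Of the treated numbers in that span 4.02% had a site, a value raised by a span that begins and ends on treated sites. Over the whole locus the treated numbers lie between 174 and 556, and 1.26% to 4.02% had a site, which includes the 2.12% of the list. By gene, 26 untreated groups had a site of at least 147 in Meg3, 40 of at least 161 in Rian and 3 of at least 25 in Mirg.

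**Figure D3:**
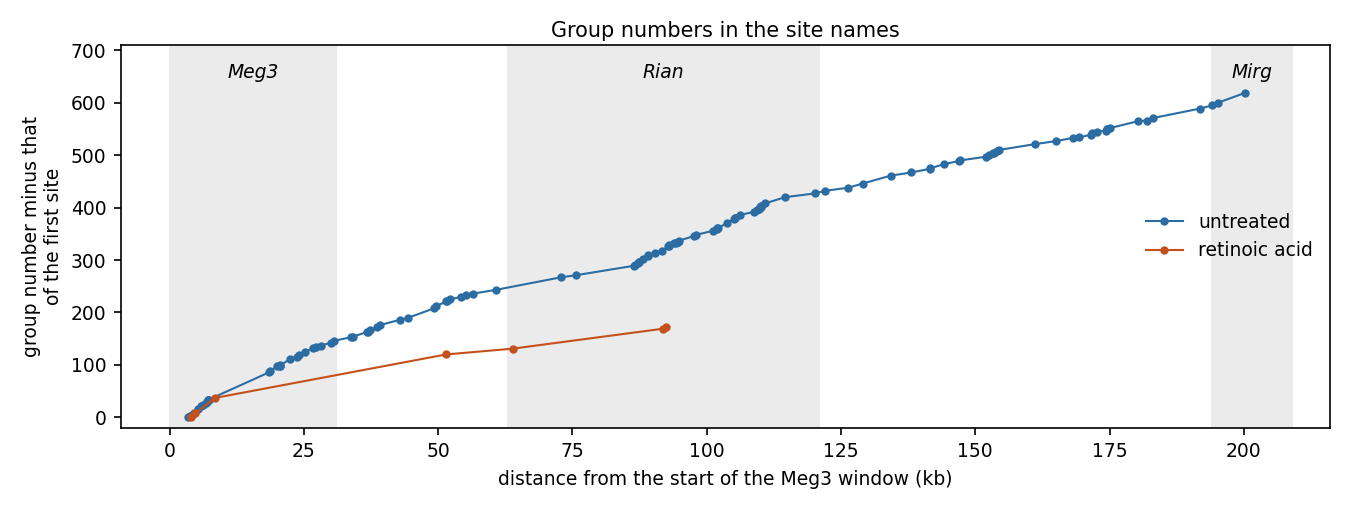
Group number of each site minus that of the first site of its list, against distance in kb from the start of the Meg3 window; points are sites, lines join neighbours and grey bands are the gene windows. The lines run together over the early part of Meg3 and part beyond it, and the treated line spans 174 numbers up to Rian while the untreated line spans 620 up to Mirg.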

How the data were processed

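The 6 libraries enter as 1 deposited site list per condition. The authors' processing pooled libraries 1 to 3 of each condition, per the labels' descriptions; per the submitters' processing notes, which name Bowtie without a role or version, mm9 was the build. The site caller is not named in the sources at hand. Values are in the score the authors deposited. The other measurement, the group number in the deposited site names, was read from the names.

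All sites were kept and coordinates are written from 1. A site belongs to a window by its deposited start. Sites were shared when at least 1 base overlapped on the same strand. Regions joined sites across gaps of up to 10 kb; a two-sided Fisher exact test was run on regions of 10 sites or more. P-values were adjusted by Benjamini-Hochberg over all 489 with a threshold of 0.05. Named sites are every treated site, the 3 highest-scored of each gene and list, shared sites and the longest empty stretches. The genes, windows and named sites were chosen with earlier results of these data known. RefSeq GRCm38.p6 gave microRNA sequences and the order of genes; no coordinate was converted. Alternatives were other gaps, site and score minimums, overlaps, wider windows, joined sites and nuclear sites alone. Python 3.11.15, numpy 2.4.6, pandas 2.3.3, scipy 1.17.1 and matplotlib 3.10.9 were used.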

Additional observations from a re-analysis of the deposited data

How the results depend on the processing

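No paired analysis was possible because each deposited list pools its 3 libraries, and for the same reason no library could be left out. With gaps of up to 100 kb the whole locus became 1 region of 123 and 7 sites. Its log2 odds ratio was -2.01, called at a Fisher exact adjusted p of 0.00105. It took in the region at the early part of Meg3, at 0.013 on its own. It also took in the region from the late part of Meg3 to the start of Rian, at -2.00 and not called on its own. With gaps of up to 1 kb the early part of Meg3, without the third treated site, gave -0.57 from 13 and 2 sites. The 2 testable pieces of the Rian and Mirg region then held 9 and 2 sites, at -0.042, and 10 and 0, neither called, and its other pieces held untreated sites alone. That region kept its call with at least 5 or 20 sites per region, a score of at least 10, nuclear sites alone and sites up to 50 bases apart joined (Fisher exact adjusted p 0.000659 to 0.00915). In each of these settings it passed the minimum through the untreated list. With at least 5 or 20 sites its counts stayed at 75 and 2, so those settings are not separate support. Sites on 1 transcript are not independent, so these p-values are too small as well. Called regions with a smaller share, 7 in all, became 11 with at least 20 sites, and 0 by Fisher exact test with gaps of 1 kb or a score of at least 100 (27 and 4 regions with unadjusted p under 0.05 in either direction). With a score of at least 100 the locus held 0.264% of the untreated list and 0% of the treated list, Rian 0.0529% and Mirg 0% of the untreated list, and no region of the locus had enough sites to be tested. Cutting the untreated list to its 5348 highest-scored sites, an alternative chosen after the data were seen, left 29 locus sites (0.542%) against 7 treated (0.131%). It raised the Meg3 share to 0.224%, gave -1.59 for the region at the early part of Meg3, not called, gave 11 called regions, and left the regions from late Meg3 onward with too few sites to test. Asking for 50% of both sites, or a score of at least 10, left 0% of sites shared in both lists, as did a score of at least 100 in the untreated list.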
